A study of Rattus norvegicus with 20 samples.

Results

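The genes described here are the rat genes named Zfp with a number, which code for zinc finger proteins. A gene entered the set when a probe set with exactly 1 gene symbol carried such a name and had a mean log2 value of at least 6 over the 20 arrays, with the brightest probe set standing for its gene. Of 251 genes so named, 197 met the rule and 54 were dimmer, out of 22093 genes with 1 symbol on the array. All 197 passed the filter on dim genes, which left 15465 genes for testing. The rule used the mean over all 20 arrays, so the level of these genes is a description, while differences between groups were not part of the rule. Just inside the threshold stood Zfp420 with a mean of 6.0, Zfp692 with 6.02 and Zfp438 with 6.05. Just outside it stood Zfp324 with 5.96, Zfp653 with 5.95 and Zfp672 with 5.94.

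Most of these proteins carry rows of C2H2 zinc fingers, small folds in which a pair of cysteines and a pair of histidines hold a zinc ion, and which read short stretches of DNA. Many also carry a KRAB domain, which recruits the corepressor Trim28 and through it the histone methyltransferase Setdb1, and such factors are known for silencing transposable elements. Others bind RNA or act in ubiquitin transfer instead. In brain tissue most of these proteins act in cell nuclei. Synaptoneurosomes are pinched-off synaptic endings in which nuclei are depleted. The arrays measured RNA, not where the proteins act.

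Gene expression was measured on arrays from the ventral hippocampus of male Sprague-Dawley rats aged 2 months. On both sides the rats received either 200 pmol of a miR-17-5p mimic, dissolved in 1.5 µl, or a commercial scrambled small RNA whose dose the labels do not give, with 11 to 13 animals per condition. RNA was taken from the homogenate of the tissue and from its synaptoneurosomes, and 100 ng of total RNA was amplified for each array. The 4 groups were homogenate from control rats, homogenate from mimic rats, synaptoneurosomes from control rats and synaptoneurosomes from mimic rats, with 5 arrays each. "Control rats" below always means rats given the scrambled RNA, and no uninjected rats are among the arrays. Homogenate RNA was purified on columns and synaptoneurosome RNA was precipitated with isopropanol and glycogen, so fraction and RNA preparation cannot be told apart. Whether the 5 arrays within a group stem from different animals is not stated, so each p-value covers just the spread between arrays, which may be technical. In bulk RNA, fewer cells of a type and less RNA per cell cannot be told apart.

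Arrays varied more in synaptoneurosomes, where the median SD of a gene was 0.21 in control rats and 0.17 in mimic rats, than in homogenate, where it was 0.12 and 0.11. On the first within-group component, synaptoneurosome control 4, control 5 and mimic 5 scored 30.2 to 53.0, the other 7 synaptoneurosome arrays -29.4 to -6.93, and the homogenate arrays -4.12 to 5.58. In control rats this was a split of 3 synaptoneurosome arrays against 2, rather than a close group with stray arrays. The 3 high-scoring arrays are called below the arrays that stood apart. They were picked from these same values, so results without them are a description and no independent test. Counts and medians of fraction differences over the whole set, and some named genes, are given below with and without these 3 arrays. Other results are given with all 20 arrays only, such as shares by brightness, overlap between groups, list counts and neighbours. Neuronal markers were present in every group: the summed level of 9 excitatory neuron markers was 18.8 to 19.1 on the log2 scale in homogenate and 19.1 to 19.5 in synaptoneurosomes. This sum was mostly Camk2a, whose mean was 18.7. In control rats 2 of the 9 fell and 3 rose, and in mimic rats 3 fell and 2 rose. All 11 tested endothelial markers and all 6 tested RNAs listed as nuclear-retained fell in synaptoneurosomes of both treatments. Of 10 astrocyte markers, 5 rose in each treatment and none fell, with summed levels of 17.8 to 18.0 in homogenate and 18.2 to 18.5 in synaptoneurosomes. Of 10 microglial markers, 5 rose in control rats and 2 in mimic rats and none fell, with summed levels of 12.9 to 13.7 and 12.8 to 14.3. The part of these cell types in the results below was not tested.

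The following sequences, from RefSeq on build GRCr8, show the injected microRNA's natural counterpart and the start regions of 3 zinc finger genes at the ends of the measured range. Zfp655 and Zfp418 were among the strongest falls in synaptoneurosomes, and Zfp106 had the largest positive difference in mimic rats. The mature microRNA lies at chr15:98587861-98587883, plus strand, with its seed, bases 2 to 8, in capitals. Each promoter window runs from 250 bases before to 50 bases after the annotated gene start, and matches to the searched motifs are in capitals. The Zfp655 window lies at chr12:14488240-14488539, minus strand, that of Zfp418 at chr1:75614467-75614766, plus strand, and that of Zfp106 at chr3:127964205-127964504, minus strand.
rno-miR-17-5p: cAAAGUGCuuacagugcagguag
Zfp655: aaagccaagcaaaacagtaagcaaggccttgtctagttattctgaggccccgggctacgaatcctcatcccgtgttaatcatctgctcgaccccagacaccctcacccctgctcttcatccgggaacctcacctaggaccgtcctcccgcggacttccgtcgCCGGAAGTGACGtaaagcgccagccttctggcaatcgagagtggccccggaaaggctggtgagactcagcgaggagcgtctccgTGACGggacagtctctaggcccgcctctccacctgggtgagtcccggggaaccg
Zfp418: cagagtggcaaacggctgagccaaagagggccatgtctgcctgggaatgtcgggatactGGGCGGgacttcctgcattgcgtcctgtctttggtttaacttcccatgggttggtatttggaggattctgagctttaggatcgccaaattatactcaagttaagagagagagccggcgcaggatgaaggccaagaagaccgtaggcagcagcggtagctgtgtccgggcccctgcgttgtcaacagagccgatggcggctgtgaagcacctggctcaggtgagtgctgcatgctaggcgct
Zfp106: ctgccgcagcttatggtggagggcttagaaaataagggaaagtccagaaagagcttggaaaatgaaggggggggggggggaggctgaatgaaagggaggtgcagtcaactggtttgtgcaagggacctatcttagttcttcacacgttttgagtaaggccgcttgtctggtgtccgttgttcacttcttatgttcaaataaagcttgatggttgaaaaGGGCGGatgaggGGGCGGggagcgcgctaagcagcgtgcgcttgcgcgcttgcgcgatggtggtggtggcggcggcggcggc

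In these windows, Zfp655 held 1 ETS core (CCGGAAG) next to a CRE core (TGACG) and a further CRE core downstream, Zfp418 held 1 GC box (GGGCGG) and Zfp106 held 2. Both strands were searched, and a match is a description, not a binding site. Of the 197 genes, 161 had a RefSeq promoter. The ETS core was in 19.3% of these, in 17.3% of the promoters of other genes with a mean of at least 6, and in 9.22% of all 27457 promoters. The GC box was in 45.3% of zinc finger promoters, 62.3% of those of other bright genes and 34.9% of all. The CCAAT box (CCAAT) was in 45.3%, 37.4% and 37.7% in the same order. The CRE core was in 26.7%, 31.7% and 22.0%, and the TATA box (TATAAA) was in 11.2%, 6.91% and 14.3%. The median number of CpG dinucleotides per window was 17 for zinc finger genes, 21 for other bright genes and 7 for all promoters. None of these shares was tested.

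Zinc finger genes were mid-level transcripts, and their mean level was lower on every synaptoneurosome array than on every homogenate array. The mean over the 197 genes was 7.78 to 7.84 on the 5 homogenate arrays of control rats and 7.77 to 7.90 on those of mimic rats. In synaptoneurosomes it was 7.38 to 7.66 in control rats and 7.38 to 7.69 in mimic rats, so the fractions did not overlap and the treatments did. This separation was not particular to the set: the median of all tested genes was 7.51 to 7.66 on the homogenate arrays and 7.31 to 7.49 on the synaptoneurosome arrays. The 11418 other genes with a mean of at least 6 were brighter, at 8.85 to 9.0 in homogenate and 8.75 to 8.95 in synaptoneurosomes. The mean of zinc finger genes minus that of the other bright genes was -1.18 to -1.02 over the 10 homogenate arrays. It was -1.39, -1.54 and -1.47 on the 3 synaptoneurosome arrays that stood apart, and -1.2 to -1.08 on the other 7, which overlapped the homogenate. Counted by group mean, 64 zinc finger genes reached 8 in homogenate and 52 in synaptoneurosomes of control rats, and 65 and 58 did so in mimic rats.

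**Figure D1:**
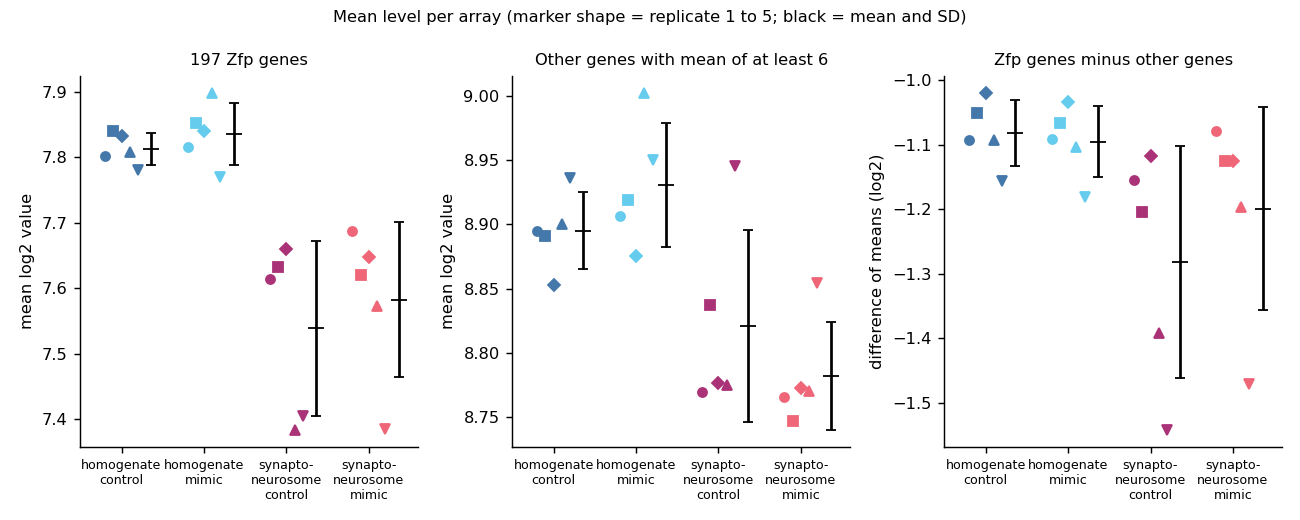
Mean log2 value per array over the 197 Zfp genes (left), over the 11418 other genes with a mean of at least 6 (middle) and the difference between them (right), for 4 groups of 5 arrays, with group means and SD in black. The Zfp means of synaptoneurosomes, 7.38 to 7.69, lie below those of homogenate, 7.77 to 7.90, and the 3 arrays that stood apart have the lowest differences.

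The comparison of fractions asks which transcripts are depleted from or enriched in the synaptic preparation. In control rats, 121 of the 197 zinc finger genes (61.4%) fell in synaptoneurosomes at an adjusted p below 0.05 (limma, Benjamini-Hochberg over all tested genes), where 28.0% of all tested genes fell and 34.0% of the other bright genes did. Only 2 zinc finger genes rose, Zfp24 and Zfp423 (1.02%), against 11.8% of all tested genes and 11.5% of other bright genes. The median difference, synaptoneurosome minus homogenate, was -0.29 on the log2 scale for zinc finger genes, with quartiles at -0.40 and -0.14 and a range from -1.0 to 0.56. It was -0.13 for other bright genes and -0.06 for all tested genes. The 5 synaptoneurosome values lay wholly below the 5 homogenate values for 86 zinc finger genes (43.7%), as for 17.5% of all tested genes. No zinc finger gene lay wholly above, as 6.10% of all tested genes did.

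In mimic rats the picture was similar. There 115 zinc finger genes (58.4%) fell, against 30.8% of all tested genes and 37.5% of other bright genes. Zfp106, Zfp365, Zfp423 and Zfp523 rose (4 genes, 2.03%), against 11.0% of all tested genes and 9.11% of other bright genes. The median difference was -0.26 for zinc finger genes, -0.16 for other bright genes and -0.08 for all tested genes. Groups did not overlap, with synaptoneurosomes lower, for 79 zinc finger genes and 25.4% of all tested genes, and with synaptoneurosomes higher for 1 and 7.10%. Across treatments, which do not share arrays, 100 zinc finger genes fell in both, 1 rose in both, none was called in opposite directions and 56 passed in neither. The 100 are 50.8% of the set, where 30.4% of other bright genes and 24.6% of all tested genes fell in both, and 7.54% and 7.41% of these rose in both. In all, 170 of 197 had a negative difference in both treatments. These counts are set against other genes as a description, and the difference in share was not tested.

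**Figure D2:**
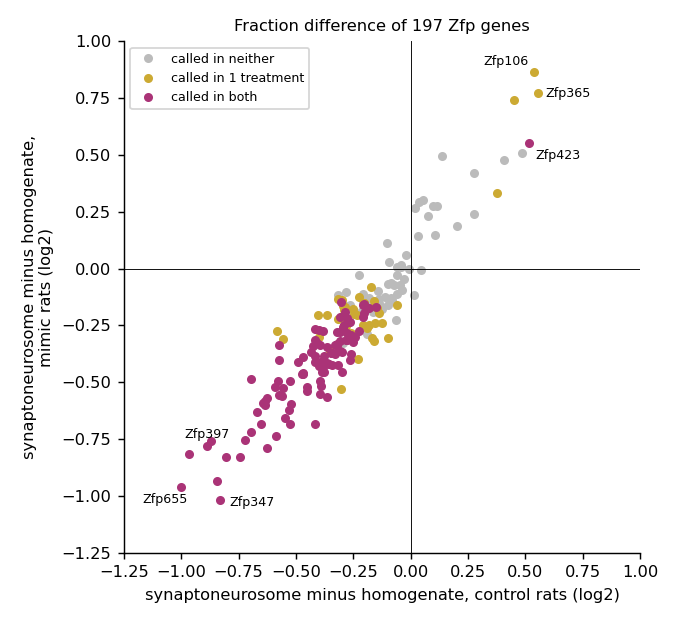
Each point is 1 of the 197 Zfp genes, placed by its log2 difference between synaptoneurosomes and homogenate in control rats (x axis) and in mimic rats (y axis), and coloured by the number of treatments in which limma called it. Most points lie in the lower left, with 100 genes lower in both treatments and Zfp423 alone higher in both in the values as deposited.

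Zinc finger genes are dimmer than most bright genes, so the fractions were also compared within intervals of brightness. Among genes with means from 6 to 7, 43 of 66 zinc finger genes (65.2%) fell in control rats, against 28.2% of other genes in that interval. From 7 to 8 it was 47 of 73 (64.4%) against 39.2%, and at 8 or more 31 of 58 (53.4%) against 34.4%. In mimic rats the shares were 59.1%, 64.4% and 50% of zinc finger genes, against 32.3%, 43.5% and 37.5% of other genes. The zinc finger genes that rose, 2 in control rats and 4 in mimic rats, all had a mean of 8 or more.

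**Figure D3:**
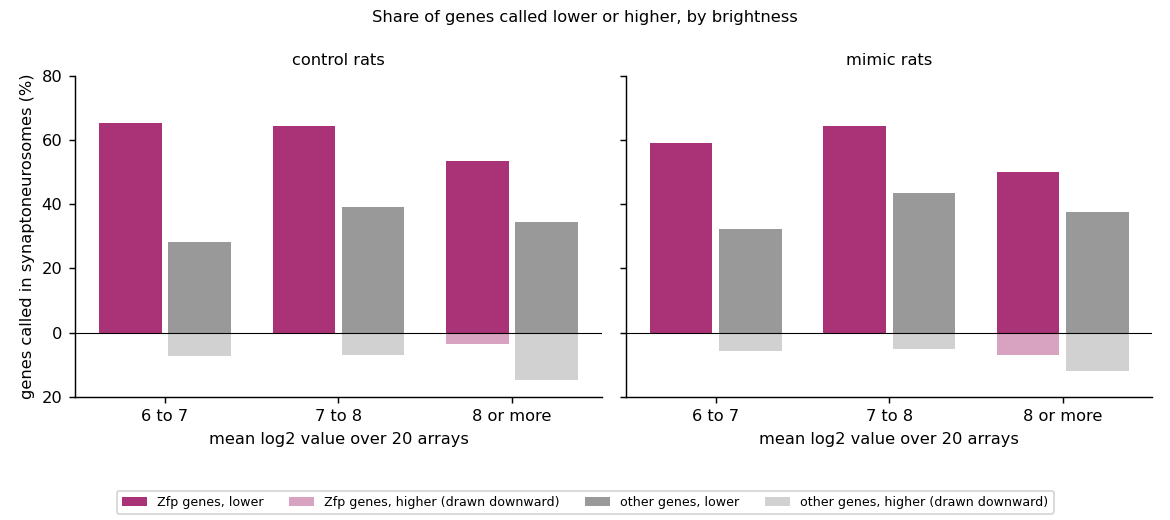
Percent of genes called lower (upward bars) and higher (downward bars) in synaptoneurosomes by limma, for Zfp genes and other tested genes in 3 intervals of mean log2 value. In each interval and treatment the share of Zfp genes called lower, 50% to 65.2%, exceeds that of other genes, 28.2% to 43.5%.

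These counts depended on how the arrays were scaled. Setting each array's median to 0 moved the median of all tested genes in control rats from -0.06 to 0.11, and in mimic rats from -0.08 to 0.14. Zinc finger genes called lower then numbered 50 in control rats and 34 in mimic rats, and those called higher 7 and 22. Higher calls thus made up 12.3% and 39.3% of the calls among zinc finger genes, against 1.63% and 3.36% as deposited. Of zinc finger genes 3.55% and 11.2% rose, against 21.1% and 22.7% of other bright genes and 27.7% and 33.1% of all tested genes. Under this scaling 25.4% of zinc finger genes and 18.9% of other bright genes fell in control rats, but 17.3% and 19.2% in mimic rats, so that the share was below that of other genes there. Quantile scaling gave 56 lower and 8 higher in control rats and 53 lower and 17 higher in mimic rats, with higher calls making up 12.5% and 24.3%. Under it 28.4% of zinc finger genes fell in control rats, against 19.2% of other bright genes and 16.0% of all tested genes, and 26.9% fell in mimic rats, against 22.1% and 19.0%. Of zinc finger genes 4.06% and 8.63% rose, against 17.5% and 15.4% of other bright genes and 15.6% and 13.4% of all tested genes. The gap between the medians of zinc finger genes and other bright genes moved less, in control rats from -0.15 as deposited to -0.14 after quantile scaling, and in mimic rats from -0.10 to -0.08.

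Without the 3 arrays that stood apart, 97 zinc finger genes fell in control rats and 17 rose, with 107 falls and 18 rises in mimic rats. In control rats the falls made up 49.2% of zinc finger genes, 35.9% of other bright genes and 29.0% of all tested genes, and the rises 8.63%, 16.1% and 14.8%. In mimic rats falls were 54.3%, 43.7% and 35.4% in the same order, and rises 9.14%, 14.5% and 16.1%. The scarcity of rises among zinc finger genes was therefore much smaller than with all arrays. The gap in medians to other bright genes was then -0.09 and -0.05. The genes that rose in both treatments without these arrays were 17, among them Zfp106, Zfp365, Zfp423, Zfp335, Zfp462, Zfp521 and Zfp91. Of the 100 genes that fell in both treatments as deposited, 83 also did so without the 3 arrays. In 27 genes the fall in both treatments was called with all 3 scalings and without the 3 arrays, among them Zfp655, Zfp347, Zfp397, Zfp418, Zfp46, Zfp40, Zfp384, Zfp608, Zfp61 and Zfp830. Calls of other genes in both treatments were counted only in the values as deposited. The counts of 17, 83 and 27 therefore have no share of other genes to be read against.

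**Figure D4:**
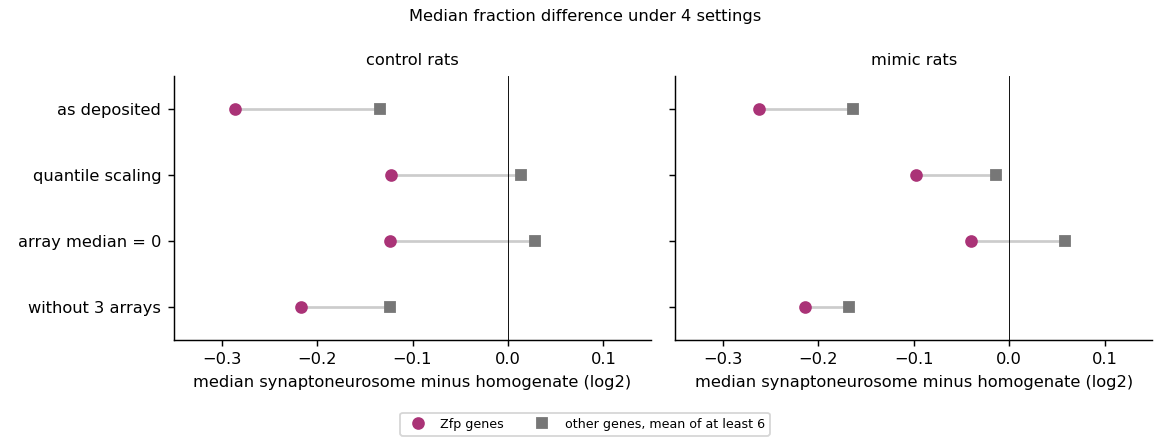
Median log2 difference between synaptoneurosomes and homogenate of the 197 Zfp genes (circles) and of other genes with a mean of at least 6 (squares), in control and mimic rats, under 4 settings. The Zfp median lies below the other median in every setting, by 0.15 to 0.09 in control rats and by 0.10 to 0.05 in mimic rats, while both move relative to 0. Setting array medians to 0 shifts both medians alike, so the gap cannot change under it.

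Zfp655 had the largest fall in control rats. Its log2 values were 10.34, 10.44, 10.42, 10.21 and 10.07 on the homogenate arrays of control rats, and 9.05, 9.52, 9.24, 9.47 and 9.20 in their synaptoneurosomes. In mimic rats they were 10.50, 10.46, 10.52, 10.31 and 10.23 in homogenate, and 9.43, 9.42, 9.48, 9.36 and 9.53 in synaptoneurosomes. Every synaptoneurosome array lay below every homogenate array, also on the 3 arrays that stood apart. The difference was -1.0 ± 0.09 (SE from limma, 5 against 5 arrays), with an adjusted p of 2.96e-07 in control rats, and -0.96 ± 0.09 with 3.56e-07 in mimic rats. The other probe sets of Zfp655 had smaller differences of the same sign, -0.61 and -0.16 in control rats. Their means were 6.66 and 4.61, the latter below the filter on dim genes.

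Zfp347 had the largest fall in mimic rats. Its values in mimic rats were 7.62, 7.82, 7.66, 7.90 and 7.24 in homogenate and 6.95, 6.50, 6.67, 6.60 and 6.44 in synaptoneurosomes. In control rats they were 7.48, 7.73, 7.48, 7.83 and 7.15, and then 6.57, 6.57, 6.89, 6.63 and 6.86. The fractions did not overlap in either treatment, although array 5 of each homogenate group was the lowest of its group. The difference was -1.02 ± 0.14 in mimic rats (limma adjusted p 1.23e-05) and -0.83 ± 0.14 in control rats (0.000114).

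Zfp397, whose human counterpart carries a SCAN domain, fell by 0.97 in control rats and by 0.82 in mimic rats on the log2 scale. Its control values were 9.03, 9.25, 9.09, 9.04 and 8.91 in homogenate and 8.21, 8.25, 8.26, 7.76 and 8.0 in synaptoneurosomes. Its mimic values were 8.93, 9.07, 9.08, 9.12 and 8.63, and 8.36, 7.86, 8.24, 8.37 and 7.92. No values overlapped between fractions, and limma's adjusted p was 9.18e-06 and 4.23e-05.

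Zfp418 fell by 0.85 in control rats and by 0.93 in mimic rats (limma adjusted p 5.62e-06 and 1.51e-06). Its homogenate values were 7.94, 8.13, 7.95, 8.20 and 8.23 in control rats and 8.40, 8.32, 8.26, 8.39 and 7.92 in mimic rats, and its synaptoneurosome values 6.98, 7.37, 7.30, 7.30 and 7.27, and 7.49, 7.22, 7.43, 7.39 and 7.09. Again each synaptoneurosome array was below each homogenate array. Zfp46 fell by 0.89 and 0.78 (3.40e-05 and 0.000101), and Zfp40 by 0.80 and 0.83 (0.000176 and 0.000109), without overlap between fractions in either treatment. Homogenate mimic 5 was the lowest array for Zfp40, at 8.94, against 9.56 to 9.74 on the other 4 arrays of its group.

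A few zinc finger genes went the other way. Zfp423, which binds EBF transcription factors and is needed for cerebellar development, was the only one called higher in both treatments in the values as deposited; 8 genes were so called under quantile scaling and 7 with array medians at 0, Zfp423 among them each time. Its values were 7.82, 7.92, 7.96, 7.86 and 7.89 in homogenate and 8.46, 8.91, 8.68, 7.93 and 8.04 in synaptoneurosomes of control rats, and 7.82, 7.81, 7.75, 7.76 and 7.94 against 8.55, 8.39, 8.45, 8.50 and 7.95 in mimic rats. The 3 arrays that stood apart were the lowest of their synaptoneurosome groups and lay at 7.93 to 8.04, near the homogenate. The difference was 0.51 ± 0.15 in control rats (limma adjusted p 0.0104) and 0.55 ± 0.15 in mimic rats (0.00584), and 0.79 and 0.66 without those 3 arrays. It was called higher under all 3 scalings.

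Zfp106, which codes for an RNA-binding protein, and Zfp365, whose product binds DISC1, were the brightest genes of the set. Zfp106 had 13.24, 13.31, 13.26, 13.36 and 13.19 in homogenate of control rats and 13.13, 13.15, 13.12, 13.16 and 13.33 in that of mimic rats. Its synaptoneurosome values were 14.41, 14.40, 14.38, 12.91 and 12.95 in control rats and 14.38, 14.30, 14.30, 14.11 and 13.12 in mimic rats. Thus 7 synaptoneurosome arrays were at 14.11 or higher, above every homogenate array, and the 3 that stood apart were at 13.12 or lower, at or below the homogenate. The difference was 0.54 ± 0.29 in control rats, which did not pass (limma adjusted p 0.141), and 0.86 ± 0.29 in mimic rats (0.0209), a call lost without synaptoneurosome mimic 1. Without synaptoneurosome control 4 or control 5 it was called in control rats too. Without the 3 arrays, which held the lowest Zfp106 values of their groups, it was 1.12 ± 0.07 and 1.09 ± 0.06.

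Zfp365 had 14.96, 14.20, 14.42, 14.60 and 14.85 in homogenate and 16.14, 15.22, 15.64, 14.20 and 14.61 in synaptoneurosomes of control rats. In mimic rats it had 14.40, 14.47, 14.42, 14.53 and 14.81 in homogenate and 15.52, 15.40, 15.61, 15.57 and 14.40 in synaptoneurosomes. The same 3 arrays were again the lowest of their groups. The difference was 0.56 ± 0.29 in control rats (limma adjusted p 0.139) and 0.77 ± 0.29 in mimic rats (0.0415). Without the 3 arrays, which held its lowest synaptoneurosome values, it was 1.06 and 1.00. The call in mimic rats was lost without any 1 of arrays 1 to 4 of either mimic group, and one in control rats was gained without synaptoneurosome control 4 and under quantile scaling (0.98, adjusted p 0.011). Zfp483, next in brightness, fell, by 0.40 and 0.43 (0.002 and 0.001). Its values were 12.81 to 13.31 over the homogenate arrays and 12.40 to 12.80 over the synaptoneurosome arrays. With array medians at 0 its differences were -0.24 and -0.20, and the call in mimic rats was lost (0.0698).

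**Figure D5:**
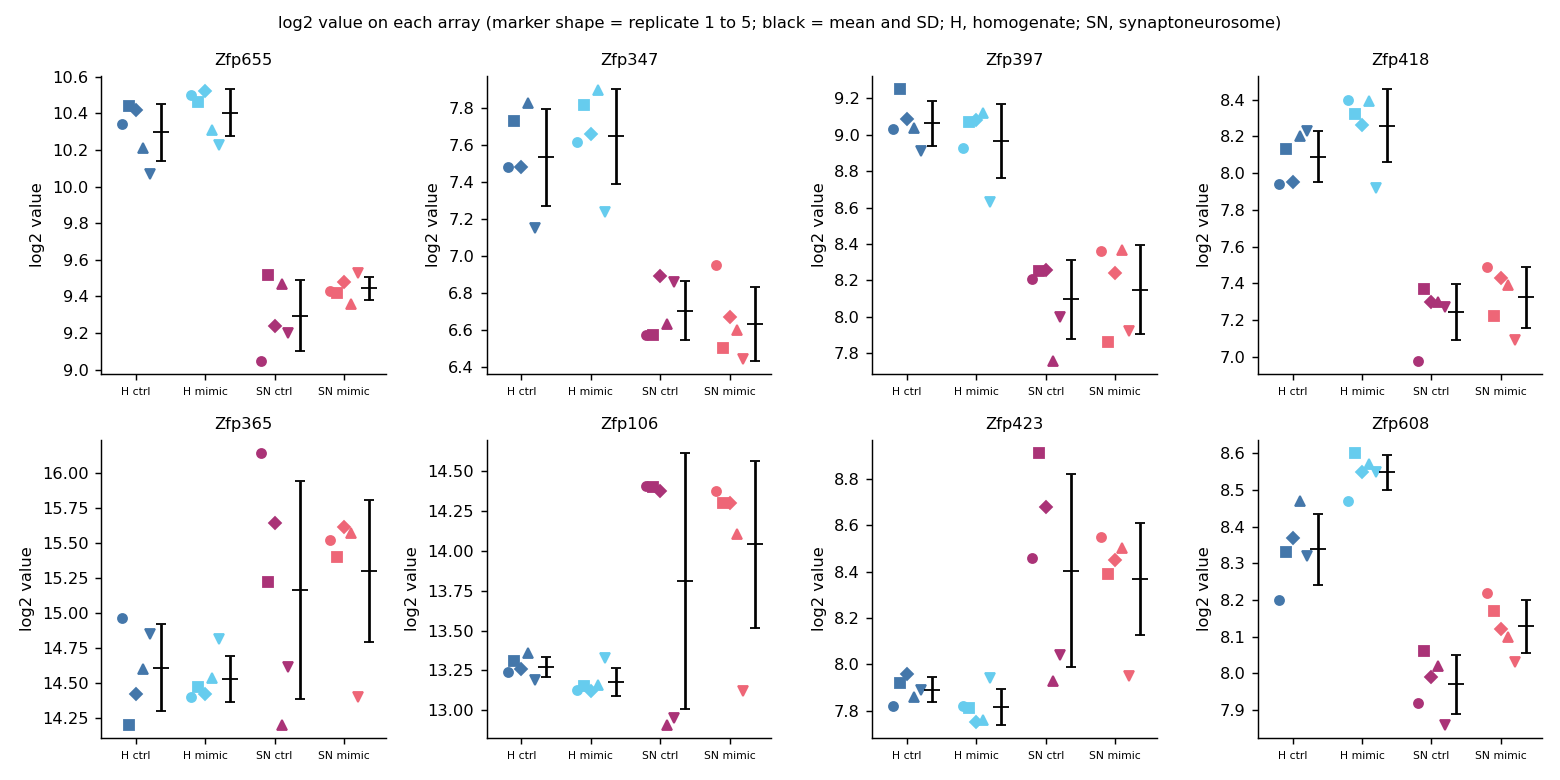
log2 values on every array for 8 Zfp genes in the 4 groups, with group means and SD in black; each panel has its own scale. Zfp655, Zfp347, Zfp397 and Zfp418 are lower in synaptoneurosomes on all arrays, while for Zfp106, Zfp365 and Zfp423 synaptoneurosome control 4, control 5 and mimic 5 lie apart from the other 7.

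Zinc finger genes with described roles were grouped by those roles. Of 8 with RNA-facing or ubiquitin roles, 5 fell in control rats (Zfp326, Zfp346, Zfp622, Zfp638 and Zfp830), and in mimic rats 4 of these fell without Zfp638 and 1, Zfp106, rose. These counts are read against falls of 61.4% and 58.4% over the whole set and of 28.0% and 30.8% over all tested genes, and the first 5 of 8 is near the share of the set. Zfp622, a factor of large ribosomal subunit maturation, fell by 0.42 in control rats (limma adjusted p 0.00376) and by 0.68 in mimic rats (4.06e-05). Under quantile scaling its difference in control rats was -0.23 and the call was lost (0.121). Zfp830, which acts in splicing, fell by 0.53 and 0.62 (0.00194 and 0.000448). Zfp326, part of a complex that couples elongation and splicing, fell by 0.36 and 0.42 (0.000858 and 0.000163). Zfp346, which binds double-stranded RNA, fell by 0.30 and 0.26, and the call in mimic rats (adjusted p 0.0107) was lost with the replicate number as a block (0.0504). Zfp598, which ubiquitinates collided ribosomes, had differences of -0.14 and -0.10 that did not pass (0.148 and 0.313), and Zfp91, a ubiquitin ligase, had 0.10 and 0.27 (0.698 and 0.252). Under both other scalings the calls of Zfp326, Zfp346 and Zfp638 in control rats and of Zfp346 in mimic rats were lost. That of Zfp638 was also lost without homogenate control 1 or 3 or synaptoneurosome control 2 or 4.

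Of 8 genes with neural or developmental roles, 1 fell and 1 rose in control rats (Zfp292 and Zfp423), and 2 fell and 2 rose in mimic rats (Zfp292 and Zfp488; Zfp365 and Zfp423), where 28.0% and 30.8% of all tested genes fell and 11.8% and 11.0% rose. Zfp292 fell by 0.32 and 0.42 (limma adjusted p 0.0129 and 0.00156). Zfp488, a regulator of oligodendrocyte differentiation, fell by 0.24 in mimic rats (0.0185), a call lost with the replicate number as a block (0.0514) and without homogenate mimic 5. Both other scalings ended the calls of Zfp292 in control rats and of Zfp488. Zfp335, Zfp462 and Zfp521, all tied to brain development, had differences of 0.03, 0.02 and 0.12 in control rats and of 0.29, 0.27 and 0.27 in mimic rats, none of which passed. Each of the 3 was called higher in both treatments without the 3 arrays that stood apart. Zfp536, a regulator of neuronal differentiation, had 0.10 and 0.15, while its other probe set had -0.34 and -0.42, so its probe sets disagree in sign. That other probe set was dim, with a mean of 4.89, below the filter on dim genes. The median of the 8 was 0.07 in control rats and 0.27 in mimic rats, above that of all tested genes.

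Of 11 genes with roles in imprinting, stem cells or genome-wide regulation, 7 fell in control rats and 5 in mimic rats, and none rose; over the whole set 61.4% and 58.4% fell, and over all tested genes 28.0% and 30.8%. Zfp384, a factor also known as CIZ, fell by 0.57 and 0.55 (limma adjusted p 2.66e-06 and 2.97e-06). Its values were 8.19 to 8.47 on the homogenate arrays and 7.58 to 7.89 on the synaptoneurosome arrays, without overlap. Zfp57, which maintains methylation at imprinted loci, fell by 0.42 and 0.31 (0.00106 and 0.0077), whereas Zfp445, with a like role, had -0.19 and -0.29 and did not pass (0.242 and 0.0791). Zfp410, an activator of Chd4, fell by 0.33 and 0.37 (0.0151 and 0.00625), and the activator Zfp143 by 0.32 and 0.28 (0.00338 and 0.00781). These calls of Zfp410 and Zfp143, and that of Zfp57 in mimic rats, were lost under quantile scaling and with array medians at 0. Zfp281, a factor of pluripotent cells, fell by 0.20 in control rats (0.0391), a call lost with the replicate number as a block (0.0518) and without homogenate control 1, 2, 3 or 5 or synaptoneurosome control 1, 2 or 4. Zfp148, also called ZBP-89, had -0.08 and -0.06 and did not pass (0.492 and 0.624).

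Relatives and partners outside the set were read from lists, to be set against the 28.0% and 30.8% of all tested genes that fell and the 11.8% and 11.0% that rose. Among 26 tested corepressor partners of KRAB zinc finger proteins, 13 fell and none rose in control rats, with 13 falls and 2 rises in mimic rats, with medians of -0.24 and -0.27. Rbbp7, Hdac1 and Cbx3 had the largest falls by the mean of both treatments among those called in both, and Trim28, picked for its role, fell by 0.46 and 0.53 (limma adjusted p 0.000111 and 2.31e-05). Of 49 zinc finger genes with BTB or SCAN domains, 18 fell and 1, Zbtb41, rose in each treatment, with medians of -0.17 and -0.14; the rise of Zbtb41 in control rats was lost without synaptoneurosome control 3. Of 69 other sequence-specific zinc finger factors, 28 fell and 1 rose in control rats, with 25 falls and 5 rises in mimic rats, with medians of -0.20 and -0.16. The medians of these 3 lists lay below those of all tested genes, -0.06 and -0.08. Other bright genes had medians of -0.13 and -0.16, and 34.0% and 37.5% of them fell. In mimic rats the BTB or SCAN median was thus above that of other bright genes, and the median of the other factors equalled it. The 6 RNAs listed as nuclear-retained were Meg3, Miat, Snhg11, Gas5 and the small nucleolar RNAs Snord22 and Snord33. They had medians of -1.76 and -1.53, and their summed level was 18.8 to 19.4 in homogenate and 14.3 to 16.9 in synaptoneurosomes. This sum was mostly Snord33, whose mean was 17.4. Where these RNAs lie in the cell was not measured. The 11 endothelial markers had medians of -2.0 and -2.24, with summed levels of 12.5 to 12.9 and 10.6 to 11.6. The part of nuclear RNA and of vessel cells in the lower levels of zinc finger genes was not tested.

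Many zinc finger genes lie in clusters, and 48 of the 195 with a RefSeq entry on GRCr8 were on chromosome 1. Of 75 with a Zfp or Znf gene as a direct neighbour, 54 (72%) fell in control rats and 51 (68%) in mimic rats. Of 120 without such a neighbour, 65 (54.2%) and 62 (51.7%) fell. Both shares were above those of other bright genes, 34.0% and 37.5%, and of all tested genes, 28.0% and 30.8%. The medians were -0.31 against -0.25 in control rats and -0.30 against -0.22 in mimic rats, and clustered genes were dimmer, with a median level of 7.13 against 7.55. The difference was not tested, and whether probes of near-identical neighbours share signal was not tested either. More than 1 probe set was present for 16 zinc finger genes, and 16 of their 20 other probe sets had the sign of the brightest one in both treatments. The exceptions belonged to Zfp536, Zfp101, Zfp853 and Zfp697.

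The comparison of mimic with control rats asks which transcripts differ when miR-17-5p is supplied. In homogenate no zinc finger gene passed (limma, smallest adjusted p 1), and 0% of all tested genes did. At an unadjusted p below 0.05 there were 4 zinc finger genes (2.03%), against 1.73% of all tested genes. In synaptoneurosomes none passed (smallest adjusted p 0.933), and 3 had an unadjusted p below 0.05 (1.52%), against 3.50% of all. The mimic effect in synaptoneurosomes minus that in homogenate also gave no call (smallest adjusted p 0.998), and 0 genes with an unadjusted p below 0.05, against 1.57% of all. The medians of these 3 comparisons were 0.02, 0.04 and 0.02, and the median standard error of a single gene was 0.09 in each fraction. For other bright genes the medians were 0.03, -0.02 and -0.05. Differences were negative for 38.1% of zinc finger genes and 34.8% of other bright genes in homogenate, and for 29.4% and 55.2% in synaptoneurosomes. The arrays that stood apart, control 4, control 5 and mimic 5, are split unequally between the synaptoneurosome groups. These gaps were not tested.

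Zfp608 had the smallest unadjusted p among zinc finger genes in homogenate. Its values there were 8.20, 8.33, 8.37, 8.47 and 8.32 in control rats and 8.47, 8.60, 8.55, 8.57 and 8.55 in mimic rats, where the highest control array equalled the lowest mimic array. In synaptoneurosomes they were 7.92, 8.06, 7.99, 8.02 and 7.86, and 8.22, 8.17, 8.12, 8.10 and 8.03, which overlapped by 1 array on each side. The differences were 0.21 ± 0.06 in homogenate (limma p 0.0017 unadjusted, 1 adjusted) and 0.16 ± 0.06 in synaptoneurosomes (0.0127 unadjusted, 0.933 adjusted), and thus did not hold after adjustment.

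The other genes are given as the 2 with the smallest p in each direction, so some have a larger p than genes of the opposite direction, and none held after adjustment. In homogenate the 4 genes with an unadjusted p below 0.05 were Zfp608, Zfp61, Zfp422 and Zfp952 (0.15, p 0.0443). In synaptoneurosomes the 3 were Zfp819, Zfp608 and Zfp13 (0.20, p 0.0262). Zfp61 differed by 0.34 ± 0.14 in homogenate (limma p 0.0234 unadjusted, 1 adjusted), Zfp422 by -0.14 ± 0.06 (0.0346) and Zfp677 by -0.22 ± 0.13 (0.114). In synaptoneurosomes Zfp819 differed by 0.17 ± 0.06 (0.00807 unadjusted, 0.933 adjusted). Its values were 6.22, 6.31, 6.29, 6.27 and 6.17 in control rats and 6.47, 6.42, 6.39, 6.38 and 6.44 in mimic rats, which did not overlap. Zfp59 differed there by -0.13 ± 0.07 (0.0712) and Zfp790 by -0.26 ± 0.13 (0.0715). For that difference between fractions, Zfp819 had 0.15 ± 0.08 (0.07), Zfp422 0.15 ± 0.09 (0.0921), Zfp622 -0.27 ± 0.15 (0.0815) and Zfp59 -0.16 ± 0.10 (0.121).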

How the data were processed

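The deposited table held log2 expression values made by the authors. The submitters' processing notes name Transcriptome Analysis Console and RMA, with versions not given in the sources used here. The method usually equalises array distributions over all probes, but over the tested genes array medians still ran from 7.31 to 7.66, so rescaled values were used as alternatives. The number of arrays limits precision. Groups and replicate numbers came from the sample titles. The brightest of a gene's probe sets stood for it, and the lowest 30% of genes by mean (below 4.97) were left out.

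Comparisons used limma 3.58.1 in R 4.3.3, 1 fit with 4 group means, 16 residual and 2.56 prior degrees of freedom, two-sided, with Benjamini-Hochberg adjustment over 15465 genes and a threshold of 0.05; errors after ± are limma standard errors. They pool the spread of both fractions, so those for homogenate carry that of synaptoneurosomes. The fit was tested on simulated data. Tables and plots used Python 3.11.15, numpy 2.4.6, pandas 2.3.3 and matplotlib 3.10.9.

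Arrays of 1 number in both fractions of a treatment deviated together (r from 0.10 to 0.48 over 10 pairs), and each homogenate array correlated best with its own number (10 of 10), so the numbers pair the fractions. Unless a block is named, the limma p-values given here ignore this pairing. With the block, in a fit of only the compared groups, adjusted p in control rats was 0.00109 for Zfp655, against 2.96e-07, and 0.00088 for Zfp418, against 5.62e-06. For Zfp106 in mimic rats it was smaller, 0.0175 against 0.0209. Between treatments r for 1 number ran from -0.30 to 0.83. Control synaptoneurosome arrays 1, 2, 3 and 5 correlated best with the mimic array of their own number (0.55, 0.59, 0.52 and 0.83). Homogenate arrays 3 and 5 did so too (0.28 and 0.41), but the other numbers did not. The treatments were given to different rats, and whether arrays of 1 number share a processing step across treatments was not tested.

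Members and lists were chosen with earlier results of these data known. Named are the 3 brightest members, up to 6 per direction with the largest fraction differences called in both treatments, the smallest p-values for the mimic, members at the threshold, role lists and leading relatives. Trim28, Meg3, Snhg11, Zfp13, Zfp24, Zfp523 and Zfp952, and genes listed with a count, were named after their values were seen. Alternatives covered scaling, filters, probe sets, pairing, variance models, array weights, arrays left out and the member rule. Protein features were not used here.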

Additional observations from a re-analysis of the deposited data

Results flagged for a closer look

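The values below belong to arrays that lay far from the other 4 arrays of their group, with a gap above Dixon's 95% critical value of 0.71 of the group's range. Chance marks about 1 in 20 groups, and 180 groups were checked, 44 genes and the mean over the set in each of the 4 groups; 19 were marked. All values are on the log2 scale.

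Synaptoneurosome mimic 5 had 8 of these values and was the lowest array of its group in each case: Zfp365 at 14.40 against 15.40 on the nearest array, Zfp106 at 13.12 against 14.11, Zfp423 at 7.95 against 8.39, Zfp91 at 11.39 against 12.02, Zfp335 at 7.28 against 7.75, Zfp143 at 7.98 against 8.14, Zfp592 at 7.57 against 7.95 and Zfp532 at 7.74 against 8.18. In the other synaptoneurosome group, Zfp483 was at 12.47 on control 2 against 12.67, and Zfp418 at 6.98 on control 1 against 7.27.

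In homogenate of mimic rats, array 5 was high for Zfp106 at 13.33 against 13.16, and low for Zfp40 at 8.94 against 9.56 and for Zfp638 at 10.12 against 10.32. Zfp790 was high on mimic 4 at 7.36 against 6.60, and Zfp830 was low on mimic 2 at 6.76 against 7.15. In homogenate of control rats, Zfp622 was high on array 5 at 8.06 against 7.83 and Zfp326 high on array 3 at 6.95 against 6.80. Zfp91 was low on array 1 at 11.52 against 11.69, and Zfp281 was low on array 4 at 9.18 against 9.31.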

How the results depend on the processing

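Counts of zinc finger genes are given as lower and higher in synaptoneurosomes, first in control and then in mimic rats; as deposited they were 121 and 2, and 115 and 4. Quantile scaling gave 56 and 8, and 53 and 17, with medians of -0.12 and -0.10; array medians at 0 gave 50 and 7, and 34 and 22, with medians of -0.12 and -0.04. Without the 3 arrays that stood apart 17 and 18 rose, with array weights 13 and 20, and with only the compared groups in the fit 1 and 8. With array weights these rises were 6.60% and 10.2% of zinc finger genes. Of other bright genes 13.3% and 16.8% then rose, and of all tested genes 12.2% and 19.2%. With only the compared groups the rises were 0.51% and 4.06%, against 9.02% and 10.2% of other bright genes and 8.42% and 11.1% of all. With the replicate number as a block, which pairs the fractions, 1 and 8 rose and 112 and 101 fell. These falls were 56.9% and 51.3% of zinc finger genes, against 32.3% and 38.2% of other bright genes and 26.2% and 30.9% of all. The rises were 0.51% and 4.06%, against 11.5% and 10.6% of other bright genes and 10.4% and 10.4% of all. The named calls ended by the block were Zfp346 and Zfp488 in mimic rats and Zfp281 in control rats. A member threshold of 7 left 78 and 76 falls. Shares of other genes are not given for this threshold or for single arrays left out. Between mimic and control rats no zinc finger gene was called under any alternative run.

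Leaving out 1 array at a time gave 104 to 130 falls and 1 to 9 rises in control rats, and 98 to 116 and 2 to 14 in mimic rats. Medians ran from -0.31 to -0.25 and from -0.29 to -0.21, and gaps to other bright genes from -0.18 to -0.12 and from -0.11 to -0.05. For the mimic, medians ran from 0.00 to 0.03 in homogenate, from 0.01 to 0.08 in synaptoneurosomes and from -0.01 to 0.06 for the difference between fractions. Rises in mimic rats numbered 14 without synaptoneurosome mimic 5, 9 without control 4, 8 without control 5, 7 without control 3 and 2 without mimic 1 or mimic 3. In control rats they numbered 9 without control 4, 6 without control 5, 4 without mimic 5 and 1 without most other arrays.

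Signs of small differences turned in named genes, and the cause was not tested. Under quantile scaling Zfp598 became 0.0183 and 0.0537 in control and mimic rats, Zfp488 0.0556 in control rats, and in mimic rats Zfp148 0.0123, Zfp281 0.0301, Zfp592 0.095, Zfp687 0.0152 and Zfp532 0.0718. With array medians at 0, Zfp598 became 0.02 and 0.122, Zfp148 0.078 and 0.16, Zfp488 0.036 in control rats, and in mimic rats Zfp638 0.054, Zfp281 0.07, Zfp592 0.12, Zfp687 0.04 and Zfp532 0.104. With probe sets averaged, Zfp536 became -0.119 and -0.137, and Zfp59 0.0185 for the mimic in synaptoneurosomes and 0.001 for the difference between fractions. With array weights Zfp148 became 0.0212 in control rats and Zfp592 0.00351 in mimic rats, and without the 3 arrays Zfp148 became 0.068 and 0.0085. Leaving out 1 array at a time, Zfp462 ran from -0.062 to 0.118, Zfp335 from -0.0715 to 0.134, Zfp521 from -0.001 to 0.222 and Zfp91 from -0.011 to 0.242 in control rats, and Zfp148 from -0.102 to 0.0085 in mimic rats.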
